A study of Mus musculus with 12 samples.

Results

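Argonaute (Ago) binding was examined at the transcripts of 5 mouse genes that are listed as known targets of the microRNA miR-144: Ezh2, Nfe2l2, Adam10, Mtor and Klf2. Ago HITS-CLIP crosslinks Ago protein to the RNA it holds, precipitates it with an antibody and sequences the bound fragments, which pile up as peaks. Every peak whose deposited gene name was one of the 5 was taken, also where it held few reads. This gave 117 of the 106382 peaks in the authors' table and 5 of its 12102 named genes, with 53 peaks in Adam10, 27 in Ezh2, 17 in Mtor, 16 in Nfe2l2 and 4 in Klf2.

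All libraries came from fetal liver cells of strain C57BL/6J, in which blood-forming cells are the main population besides hepatocytes. The mice were wild type (WT) or carried a deletion of the locus that encodes miR-144 and miR-451a (miR-144/451-/-, here KO), and RNA was precipitated with an Ago antibody or, as a background, with unspecific IgG. Each of the 4 groups held 3 libraries, called by the number in their title: WT Ago 1, 9 and 10, KO Ago 3, 12 and 13, WT IgG 2, 6 and 11, and KO IgG 4, 8 and 14. The design text speaks of 3 livers of each genotype. The age of the embryos, and which library came from which liver, are not stated in the sources at hand, so p-values measure the spread between these libraries, which may be technical.

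MicroRNAs guide Ago to messenger RNAs by pairing their seed, the bases near their 5′ end, with matching letters that lie mostly in the 3′ untranslated region (3′UTR). Bound transcripts are then translated less or degraded sooner. The locus encodes miR-144 and miR-451a, which accumulate as red cells mature, and miR-144 is known for restraining the antioxidant factor Nfe2l2 in erythroid cells. Unlike most microRNAs, miR-451a is cut out of its hairpin by Ago2 itself rather than by Dicer.

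The mature microRNAs of the locus are shown because each peak was read by its match to their seeds, and miR-16-5p is shown as one made elsewhere in the genome. Sequences are those of RefSeq (GRCm38.p6), 5′ to 3′, with the seed, bases 2 to 8, in capitals.

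miR-144-3p: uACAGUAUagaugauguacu

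miR-144-5p: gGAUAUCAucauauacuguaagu

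miR-451a: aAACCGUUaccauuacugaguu

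miR-16-5p: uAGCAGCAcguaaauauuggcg

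The 4 seeds differ, so a site for one is no site for another. On a target the miR-144-3p seed pairs with TACTGT as a 6-mer, ATACTGT as a 7-mer-m8, TACTGTA as a 7-mer-A1 and ATACTGTA as an 8-mer. The authors' deposited codes give the best such match near each peak, and lower codes stand for a single mismatch in the seed or an offset 6-mer. By these codes 9 of the 117 peaks held a miR-144-3p match of 6 or more letters: 1 8-mer in Nfe2l2, 1 7-mer-m8 in Ezh2, a 7-mer-A1 in each of Ezh2 and Mtor, and 5 6-mers, of which 3 lay in Adam10 and 1 each in Nfe2l2 and Mtor. No peak of the 5 genes held a miR-451a match of that length, and Klf2 held no code of the locus at all. A peak's letters themselves are not printed, since no genome sequence was used here.

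The libraries were shallow. Ago libraries held 147969 to 452157 reads in peaks and IgG libraries 24622 to 42916. Levels are given as RPM, the reads per 1000000 reads in all peaks of the library, and a single read in KO IgG library 14 was worth 40.6 RPM. No peak overlapped the hairpins of Mir144 or Mir451a on chromosome 11, so the deletion could not be checked there. Over all peaks of the table that lie outside the 5 genes, those with a miR-451a match of 6 to 8 letters had KO over WT read ratios of 0.118 to 0.155, against 1.08 for those with no miR-451a code. With totals scaled by TMM, explained below, the matched peaks had 0.102 to 0.134 and those with no code 0.937. The matched peaks were lower in KO either way, which is the direction the labels give. Of the marker lists, 8 of 8 hepatocyte and 7 of 10 erythroid genes had peaks, while Hbb-bs, Hba-a1 and Hba-a2 had none under those names. The erythroid markers took 0.816% to 0.94% of the reads in WT Ago libraries and 0.529% to 0.629% in KO Ago, which did not overlap, and 0.587% to 0.854% in IgG libraries. The hepatocyte markers took 0.496% to 1.44% in WT Ago, 0.909% to 1.77% in KO Ago and 1.36% to 2.29% in IgG. Macrophage, granulocyte and megakaryocyte markers took at most 0.142% of any library. The part of these shifts in the results that follow was not tested.

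The first comparison asked whether Ago held less of each gene's RNA without the locus, over all peaks of the gene. Reads on Ezh2, the histone methyltransferase of Polycomb repressive complex 2, fell in KO to 0.503 of the WT value (95% interval 0.418 to 0.602, from counts). Such read ratios are scaled to all reads in peaks. With totals scaled by TMM, edgeR's correction for library composition, over the tested peaks, each is 0.865 times as large. A ratio above 1 that turns below 1 is given with its TMM value. Fits of gene sums were scaled by TMM over the genes tested instead. Adam10, Nfe2l2 and Mtor did not pass the test, and Klf2 was too shallow for the test. Of 4430 genes tested 5.37% were lower and 0.655% higher in KO, so 1 lower gene among the 4 tested is a count too small to set against that share. The edgeR quasi-likelihood test called none of the 4 higher, with 1 of them, Mtor, above WT at an unadjusted p under 0.05, and DESeq2 and limma-voom also called none higher.

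**Figure D1:**
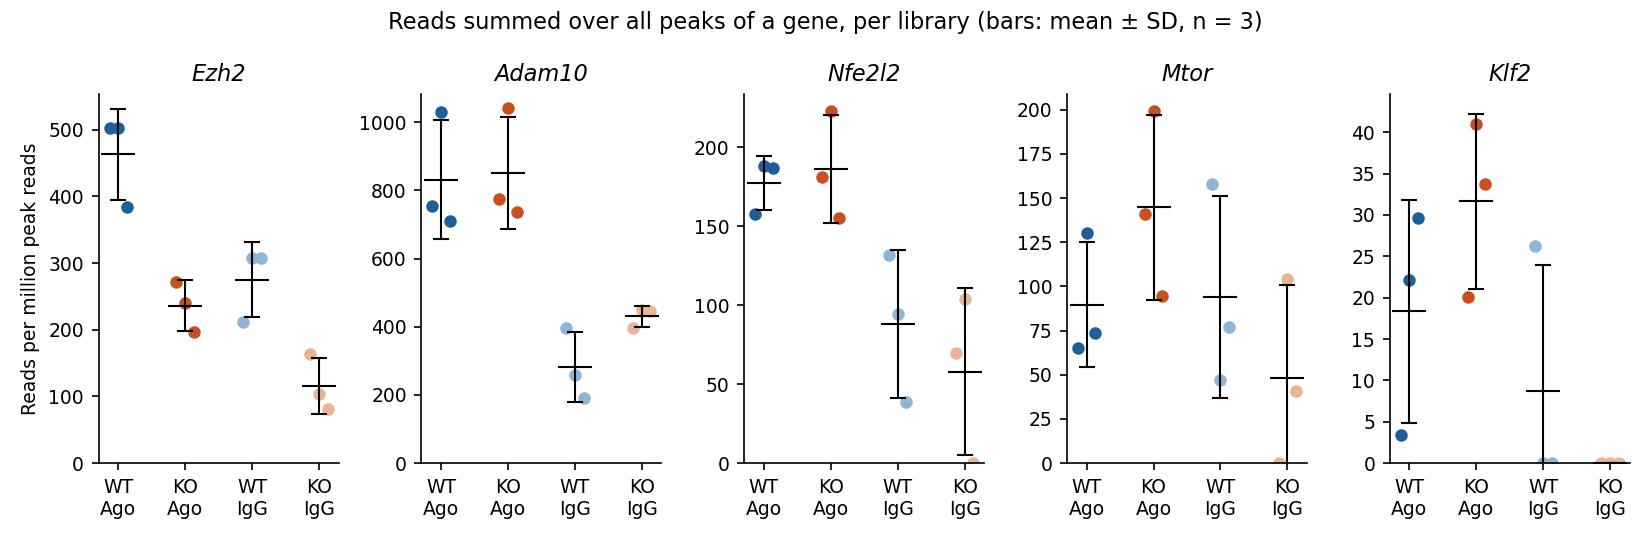
Reads summed over all peaks of each gene, in RPM, for each library (points) of the 4 groups, with bars for the mean ± SD of 3 libraries. Axes start at 0 and differ between genes. For Ezh2 the 3 KO Ago libraries (196 to 272) lie below the 3 WT Ago libraries (384 to 503), while for the other genes the Ago groups overlap.

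Ezh2 lies on chromosome 6 (47530274 to 47595270, minus strand, RefSeq on GRCm38.p6). Its 27 peaks held 147, 227 and 78 reads in WT Ago 1, 9 and 10, against 54, 82 and 29 in KO Ago 3, 12 and 13. As levels these were 463 ± 68.3 RPM in WT and 236 ± 38 RPM in KO (SD, n = 3 each), and every WT library lay above every KO library, which held for 12.8% of all genes tested. The fitted log2 change of KO over WT was -1.03 ± 0.21 (SE, 3 libraries a group; adjusted p = 0.0091 by the edgeR quasi-likelihood test). It no longer passed when KO Ago library 12 (-0.95, edgeR adjusted p = 0.053) or library 13 (-0.94, edgeR adjusted p = 0.059) was left out. In IgG libraries, which catch RNA without the Ago antibody, Ezh2 held 8, 13 and 8 reads in WT and 7, 3 and 2 in KO. The ratio of summed IgG reads, KO over WT and scaled to library totals, was 0.456 with an exact 95% interval of 0.212 to 0.922, beside 0.503 (0.418 to 0.602) for the Ago libraries. Of these IgG reads, the 2 Ezh2 peaks called lower, described below, held 17 in WT and 5 in KO. Without these 2 peaks the IgG ratio was 0.644 (0.215 to 1.77), from 12 and 7 reads. Summed over all peaks, Ezh2 reads were thus lower in KO with either antibody. Less Ezh2 RNA, fewer cells that hold it and less Ago on each RNA cannot be told apart in these bulk samples. Such intervals, here and below, cover counting error only.

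The fall in Ezh2 was unevenly spread over the transcript. The 12 coding peaks had a KO over WT ratio of 0.362 (95% interval 0.278 to 0.467), and the 13 peaks with the 3′UTR label one of 0.862 (0.646 to 1.14). The 14 peaks with any code of the locus microRNAs, mismatches included, had a ratio of 0.391 (0.309 to 0.491), and the 13 without one 0.862 (0.626 to 1.18). The 3′UTR label covers unlike places: 4 of these peaks lay within 1000 bases of the gene's RefSeq end, with a ratio of 0.609 (0.356 to 1.01). The other 9 lay 10553 to 25855 bases upstream of that end, inside the gene body, with a ratio of 1.03 (0.721 to 1.46; 0.889 with TMM totals). The peak labelled downstream lay 216 bases before the gene's start. The 2 Ezh2 peaks called lower, described next, are both coding and hold locus codes. They held 151 of the 293 WT Ago reads and 22 of the 77 KO Ago reads of the coding peaks. The splits by label and by code thus rest in part on these 2 peaks. All these splits describe the reads and were given no test.

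Both tested Ezh2 peaks fell, and both lie in coding sequence. Among the 117 peaks of the 5 genes 6 passed the filter on low counts, 2 in Ezh2 and 4 in Adam10, and 3 of these were lower and 0 higher in KO, against 17.6% lower and 1.4% higher of the 2425 peaks tested in all. The other 111 peaks held too few reads for the test. A peak that passed the filter only through its WT reads had to differ, and this held for all 3 lower peaks. The 3 of 6 is therefore not a rate for these genes, and the adjusted p-values of these peaks, given below, carry the same limit. DESeq2 called 2 and limma-voom 3 of them lower, and neither called any higher.

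The peak of Ezh2 with the most reads, at chr6:47531805-47531825, held 26, 45 and 14 reads in WT Ago libraries 1, 9 and 10 and 3 in each KO Ago library. Its level was 85.9 ± 15.5 RPM in WT and 14.7 ± 5.75 RPM in KO (SD, n = 3 each), a log2 change of -2.88 ± 0.43 (edgeR adjusted p = 1.8e-04). Its code is a single mismatch to the miR-451a seed, and it holds none for miR-144-3p. With IgG, WT libraries 2, 6 and 11 held 1, 7 and 6 reads there, which is 141 ± 104 RPM (SD, n = 3), so Ago reads were not more frequent than IgG reads (Ago over IgG in WT 0.682, 95% interval 0.385 to 1.3). The KO IgG libraries held 2, 2 and 1 reads. In the authors' deposited table this peak has a log2 change of -3.20 and a false discovery rate of 8.1e-05. Next to it, at chr6:47531745-47531793, a smaller coding peak held 5, 15 and 2 WT reads and 0, 1 and 1 KO reads, with no IgG read. It failed the filter, and with no filter its edgeR adjusted p was 0.043, among 2.54% lower and 0.0329% higher of all 106381 peaks fitted.

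The second tested Ezh2 peak carries the miR-144-3p 7-mer-m8. At chr6:47533742-47533817 it held 18, 35 and 13 WT Ago reads and 5, 6 and 2 KO Ago reads. The groups did not overlap, at 67.7 ± 8.49 RPM in WT and 18.8 ± 5.9 RPM in KO (SD, n = 3 each), with a log2 change of -2.04 ± 0.40 (edgeR adjusted p = 0.0013). WT IgG libraries held 2, 1 and 0 reads and KO IgG libraries 0 there, too few to set Ago apart from IgG (2.47, 95% interval 0.809 to 12.3). The 7-mer-A1 of Ezh2, which lies in its 3′UTR close to the gene's end (chr6:47530418-47530493), held 15, 17 and 4 WT reads and 3, 10 and 1 KO reads. Its groups overlapped, and the ratio of 0.535 (0.267 to 1.02) came with no test. A coding peak with a miR-144-3p mismatch code at chr6:47540698-47540724 held 14, 18 and 5 WT reads and 4, 5 and 2 KO reads, which did not overlap. It failed the filter, and with no filter its edgeR adjusted p was 0.13. Among the leave-one-out fits in which it passed the filter, the edgeR adjusted p was 0.028 without WT Ago library 10. It was 0.072 and 0.14 without KO Ago libraries 3 and 13.

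Other Ezh2 peaks had more reads in KO than in WT. At chr6:47554172-47554205, a peak with the 3′UTR label but inside the gene body and with no code, WT Ago libraries held 0, 7 and 8 reads and KO Ago libraries 8, 11 and 7. The ratio was 2.39 (95% interval 1.22 to 4.85), with overlapping libraries. Without the 2 called peaks the remaining 25 had a ratio of 0.654 (0.532 to 0.801), and all WT libraries still lay above all KO libraries.

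**Figure D2:**
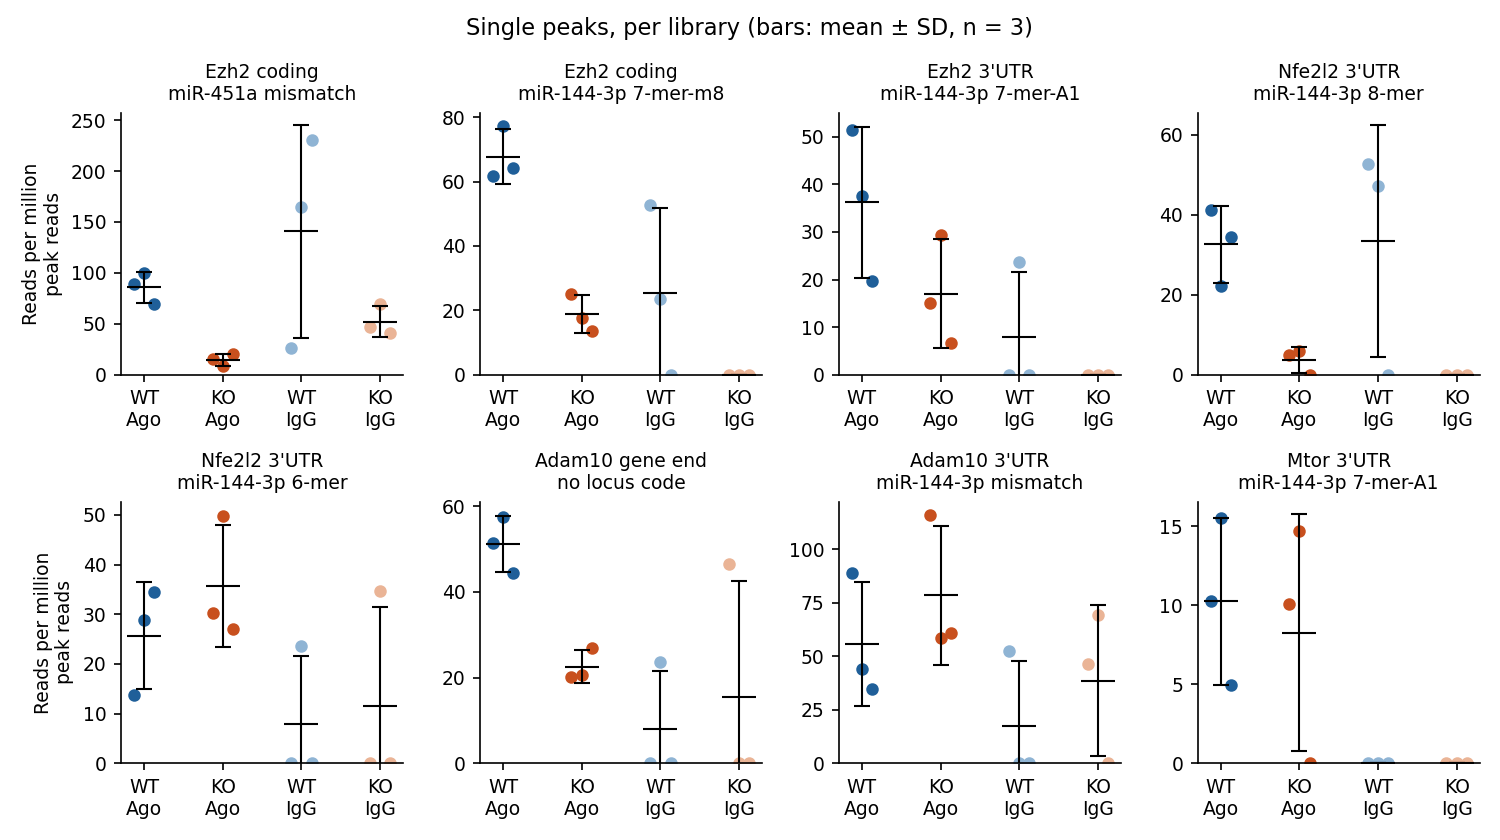
RPM at 8 single peaks, for each library (points) with the mean ± SD of 3 libraries (bars), in WT and KO with Ago antibody or IgG. The Ezh2 miR-451a mismatch peak, the Ezh2 7-mer-m8 peak, the Nfe2l2 8-mer peak and the Adam10 peak at the gene end have all KO Ago points below all WT Ago points, and the other 4 overlap.

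Nfe2l2 encodes the transcription factor NRF2, which switches on antioxidant genes. Its 16 peaks on chromosome 2 (gene at 75675513 to 75704663, minus strand) held 46, 85 and 38 reads in the WT Ago group and 36, 76 and 23 in the KO Ago group. The summed levels overlapped, at 178 ± 17.4 RPM in WT and 186 ± 34 RPM in KO (SD, n = 3 each), with a log2 change of 0.04 ± 0.21 (edgeR adjusted p = 0.93). The 95% interval of the read ratio, 0.871 to 1.39 around 1.1, holds no fall in the gene's sum as large as that of Ezh2, and nor does that with TMM totals, 0.753 to 1.2 around 0.951.

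The 8-mer peak of Nfe2l2 differed from the gene's sum. It was not the only Nfe2l2 peak with separate groups. Among the 7 with 20 or more Ago reads, 2 had all WT levels above all KO levels, against 15.5% of all peaks of that depth. The 8-mer peak, at chr2:75675600-75675622 and 87 bases from the gene's end in the 3′UTR, held 12, 10 and 7 reads in WT Ago 1, 9 and 10 and 1, 2 and 0 in KO Ago 3, 12 and 13. Every WT library lay above every KO library, at 32.6 ± 9.64 RPM in WT and 3.63 ± 3.17 RPM in KO (SD, n = 3 each). The ratio of summed reads was 0.142, with a 95% interval of 0.0278 to 0.46. The peak did not pass the filter on low counts. With no filter its log2 change was -3.00 ± 0.74 (edgeR adjusted p = 0.013), and among the leave-one-out fits in which it passed the filter the edgeR adjusted p was 0.038 (KO Ago library 3 left out) and 0.051 (KO Ago library 13 left out). WT IgG libraries 2, 6 and 11 held 2, 2 and 0 reads, or 33.3 ± 28.9 RPM (SD, n = 3), and KO IgG libraries none. These reads were too few to set Ago apart from IgG in WT (Ago over IgG 0.814, 95% interval 0.286 to 3.19).

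The 6-mer of the same 3′UTR did not follow the 8-mer. At chr2:75675885-75675911, 372 bases from the gene's end, the peak held 4, 13 and 7 WT reads and 6, 17 and 4 KO reads, a ratio of 1.55 (95% interval 0.86 to 2.8). It was the Nfe2l2 peak with the most Ago reads. The 15 peaks other than the 8-mer had a ratio of 1.3 (1.02 to 1.66), or 1.12 (0.878 to 1.43) with TMM totals, and overlapping libraries. By label, the 11 coding peaks had a ratio of 1.3 (0.955 to 1.77) and the 4 peaks in the 3′UTR 0.84 (0.572 to 1.22).

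**Figure D3:**
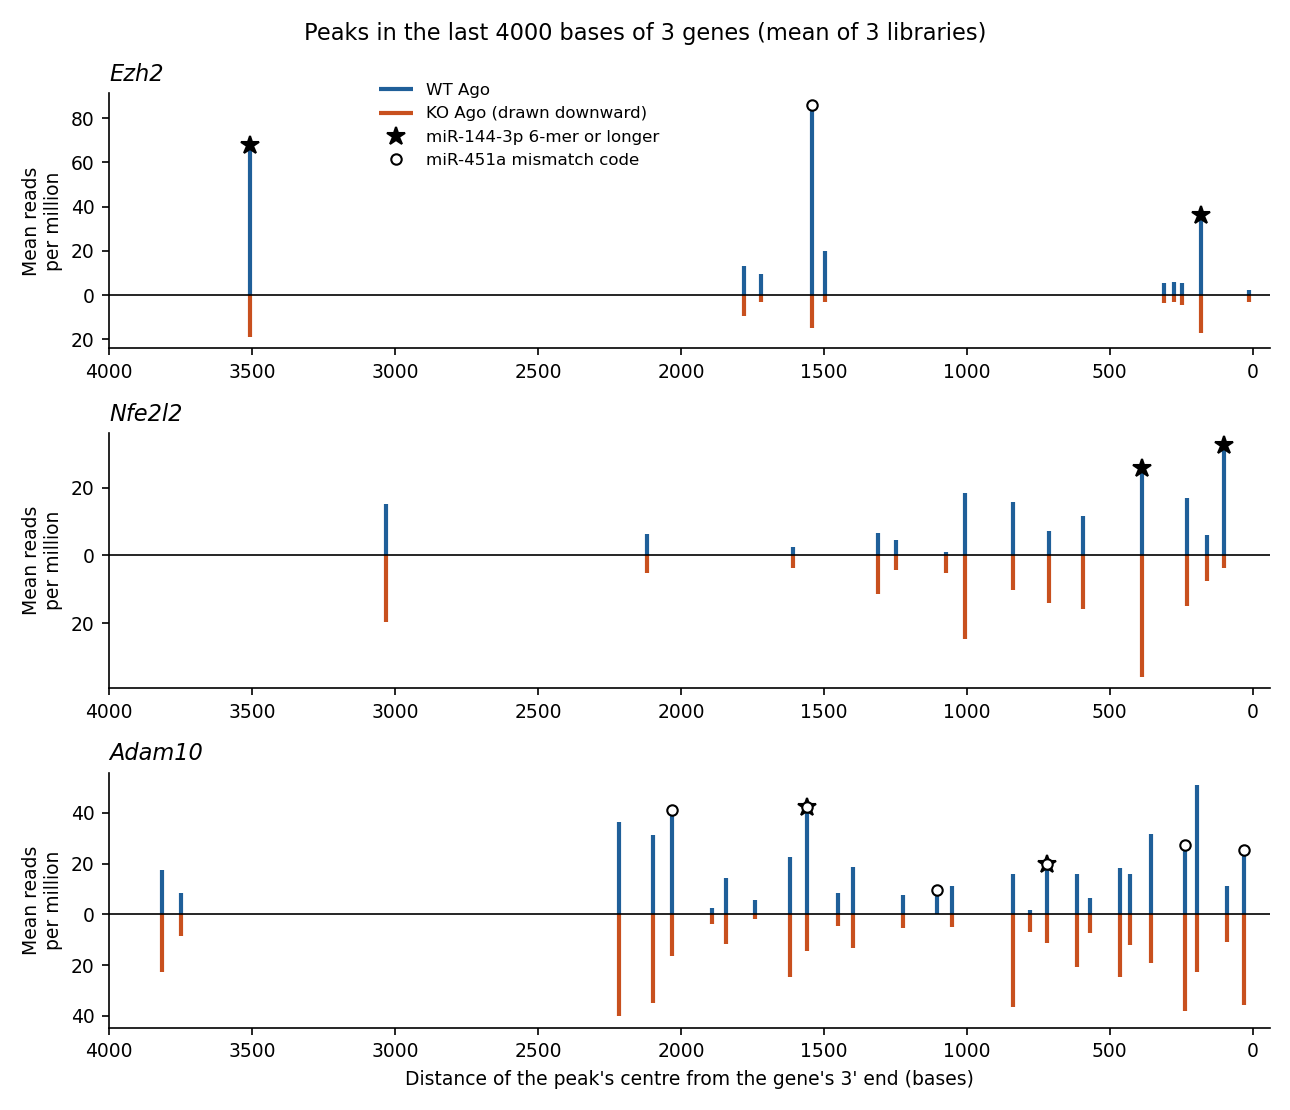
Peaks near the 3′ ends of Ezh2, Nfe2l2 and Adam10 by the distance of the peak's centre from the gene's RefSeq 3′ end in bases, with the mean RPM of 3 WT Ago libraries drawn upward and of 3 KO Ago libraries drawn downward on the same scale. Stars mark a miR-144-3p 6-mer or longer and circles a miR-451a mismatch code. At the Nfe2l2 8-mer nearest the end WT reached 32.6 and KO 3.63, while its 6-mer neighbour had 25.7 and 35.7.

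Adam10, a membrane protease that sheds cell surface proteins and cuts Notch receptors, held more Ago reads than the other 4 genes. Its 53 peaks on chromosome 9 (gene at 70678944 to 70780229, plus strand) had 753, 1031 and 710 RPM in WT Ago 1, 9 and 10 and 775, 1041 and 737 RPM in KO Ago 3, 12 and 13. The groups overlapped, with means of 831 ± 174 and 851 ± 166 RPM (SD, n = 3 each) from 830 and 618 reads. The log2 change was -0.02 ± 0.18 (edgeR adjusted p = 0.97), and the read ratio of 1.03 had a 95% interval of 0.922 to 1.14. With TMM totals, which come from the tested peaks, this ratio was 0.886 (0.797 to 0.985). The fit, with its log2 change of -0.02, was scaled by TMM over gene sums and shows no such fall.

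Of the 4 tested Adam10 peaks, 1 fell. It lies at chr9:70780023-70780049, carries the label intron and ends 180 bases before the gene's RefSeq end. It held 15, 26 and 9 WT Ago reads and 4, 7 and 4 KO Ago reads, or 51.1 ± 6.57 and 22.6 ± 3.88 RPM (SD, n = 3 each), with no overlap. Its log2 change was -1.44 ± 0.39 (edgeR adjusted p = 0.013), and it holds no code of any locus microRNA. The call was lost with DESeq2 (adjusted p = 0.11), with no filter (edgeR, 0.082) and without KO Ago library 12 (edgeR, 0.08). The authors' deposited table gives it -1.79 and a false discovery rate of 0.0028. In all, 21 of the 27 Adam10 peaks labelled intron lie within 2000 bases of the gene's RefSeq end, so this label does not place them in an inner intron of that gene model.

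The other tested peaks of Adam10 did not pass. The peak with the 3′UTR label and a miR-144-3p mismatch code at chr9:70766922-70766961 lies 13268 bases before the gene's RefSeq end, and all 12 Adam10 peaks with that label lie over 1000 bases before it. This peak had the most Ago reads of any peak in the 5 genes, with 26, 20 and 7 in WT and 23, 20 and 9 in KO, a log2 change of 0.23 ± 0.41 (edgeR adjusted p = 0.78). A coding peak with a miR-16-5p 8-mer at chr9:70743859-70743905 held 7, 24 and 7 WT reads and 7, 28 and 14 KO reads (0.64 ± 0.43, edgeR adjusted p = 0.4). A peak with the 3′UTR label and no code of the locus, at chr9:70778000-70778023, held 8, 19 and 8 WT reads and 5, 14 and 8 KO reads (-0.11 ± 0.39, edgeR adjusted p = 0.89).

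The 3 miR-144-3p 6-mers of Adam10 lay in peaks too shallow for the test. The largest, at chr9:70778640-70778701, held 15, 23 and 5 WT reads and 4, 8 and 0 KO reads, which did not overlap, and the ratio was 0.384 (95% interval 0.184 to 0.742). It passed the filter when WT Ago library 10 was left out, with a log2 change of -1.83 (edgeR adjusted p = 0.027), but had an edgeR adjusted p of 0.11 with no filter. The peak at chr9:70779493-70779528 held 7, 7 and 4 WT reads and 2, 8 and 0 KO reads, and the one at chr9:70768890-70768913 held 4, 7 and 0 against 2, 2 and 1. Libraries overlapped at both. The 3 together had a ratio of 0.516 (0.319 to 0.814), beside 1.05 (0.92 to 1.2; 0.909 with TMM totals) for the 35 Adam10 peaks with no code of the locus. The peaks at chr9:70778640-70778701 and chr9:70779493-70779528 also hold a mismatch or offset code for miR-451a, and the first a lower miR-144-5p code. The joint ratio is therefore not that of miR-144-3p matches alone.

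Along Adam10 the ratio differed between stretches. The 13 peaks just upstream of the 12 nearest the gene's end, which include the largest 6-mer and a peak at chr9:70778184-70778215 with 8, 30 and 6 WT reads and 3, 7 and 2 KO reads, had a ratio of 0.697 (0.559 to 0.864). The 12 nearest the end had a ratio of 1.05 (0.862 to 1.28), or 0.909 with TMM totals. The 14 coding peaks had 1.45 (1.13 to 1.85), or 1.25 (0.981 to 1.6) with TMM totals, and overlapping libraries. Some peaks were higher in KO: that at chr9:70779374-70779410, with a miR-21a-5p 6-mer, held 5, 7 and 3 WT reads and 7, 9 and 7 KO reads. The stretches were chosen with the values known and were given no test.

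Mtor encodes the kinase of the growth-regulating complexes mTORC1 and mTORC2. Its 17 peaks on chromosome 4 (gene at 148448582 to 148557685, plus strand) held 19, 59 and 15 WT Ago reads and 28, 68 and 14 KO Ago reads. The KO level was the higher one, at 145 ± 52.5 RPM against 89.8 ± 35.5 in WT (SD, n = 3 each), but libraries overlapped and the log2 change of 0.64 ± 0.29 did not pass (edgeR unadjusted p = 0.044, adjusted p = 0.22). The 7-mer-A1 peak in its 3′UTR, at chr4:148556977-148557039, held 3, 7 and 1 WT reads and 2, 5 and 0 KO reads, a ratio of 0.876 (95% interval 0.288 to 2.48). Its coding 6-mer peak, which also holds the only miR-144-5p match of 6 or more letters in the 5 genes, had 2, 3 and 0 WT reads and 1, 1 and 0 KO reads. These counts allow no statement on either site.

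The Mtor peaks with the most reads lie in coding sequence and hold no code of the locus. That at chr4:148536528-148536562 held 3, 4 and 2 WT reads and 6, 9 and 3 KO reads, a ratio of 2.75 (95% interval 1.17 to 6.96). That at chr4:148491696-148491726 held 2, 4 and 1 WT reads and 4, 8 and 3 KO reads, a ratio of 2.95 (1.13 to 8.55). At both, every KO level lay above every WT level once scaled to library totals. Both failed the filter here, and the authors' deposited table gives them log2 changes of 0.67 and 0.86 with false discovery rates of 0.37 and 0.23.

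Klf2, a transcription factor of the Krüppel-like family, is the smallest of the 5 genes (chromosome 8, 72319062 to 72321654, plus strand). Its 4 peaks held 1, 10 and 6 WT Ago reads and 4, 14 and 5 KO Ago reads, or 18.4 ± 13.5 and 31.7 ± 10.6 RPM (SD, n = 3 each). The ratio of 1.86 had a 95% interval of 0.952 to 3.71. With no filter the log2 change was 0.71 ± 0.54 (edgeR adjusted p = 0.58). Its largest peak, in the 3′UTR at chr8:72321076-72321148, held 0, 3 and 2 WT reads and 3, 8 and 2 KO reads. The next, in the 3′UTR at chr8:72321004-72321038, held 1, 3 and 2 WT reads and 0, 2 and 1 KO reads, a ratio of 0.688 (95% interval 0.111 to 3.22) with overlapping libraries.

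Peaks were then compared by the seed match they hold, over all 5 genes. The 4 peaks that match miR-144-3p over 7 or 8 letters held 48, 69 and 25 WT Ago reads and 11, 23 and 3 KO Ago reads, and all WT levels lay above all KO levels. Their KO over WT ratio was 0.359 (95% interval 0.243 to 0.518), the 5 6-mers had 0.763 (0.541 to 1.07), and the 76 peaks with no code of the locus had 1.12 (1.01 to 1.25), or 0.97 (0.873 to 1.08) with TMM totals. The 15 peaks with a mismatch or offset code for miR-451a had 0.611 (0.5 to 0.745), with all WT levels above all KO levels. Of these, the 5 in Ezh2 had 0.352 (0.237 to 0.51). The 9 in Adam10 had 0.77 (0.6 to 0.984) with overlapping libraries, and the 1 in Mtor 2.41 (0.613 to 11.2). The 13 peaks with a mismatch or offset code for miR-144-3p had 0.993 (0.797 to 1.24), with overlapping libraries. These classes share peaks, so their ratios are not separate values for each microRNA. The Adam10 peaks at chr9:70778640-70778701 and chr9:70779493-70779528 are among both the 5 6-mers and the 15 miR-451a peaks. Those at chr6:47556129-47556150 in Ezh2 and chr9:70710123-70710163 in Adam10 hold a mismatch or offset code for both microRNAs. The 113 peaks without a 7-mer or 8-mer had a ratio of 0.984 (0.907 to 1.07), but the 25 of these in Ezh2 had 0.543 (0.443 to 0.663), again with all WT levels above all KO levels. Over all peaks of the table outside the 5 genes, intergenic ones included and read by the miR-144-3p code alone, the ratios were 0.284 for the 8-mer, 0.517 for the 7-mer-m8, 0.506 for the 7-mer-A1, 0.738 for the 6-mer and 1.06 (0.92 with TMM totals) for no miR-144-3p code. The 7 peaks with a miR-16-5p match of 6 or more letters had a ratio of 1.17 (0.863 to 1.58). Ezh2 gave 102 of the 142 WT reads of the 7-mer and 8-mer class and Nfe2l2 gave 29, so the class value is mostly theirs.

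**Figure D4:**
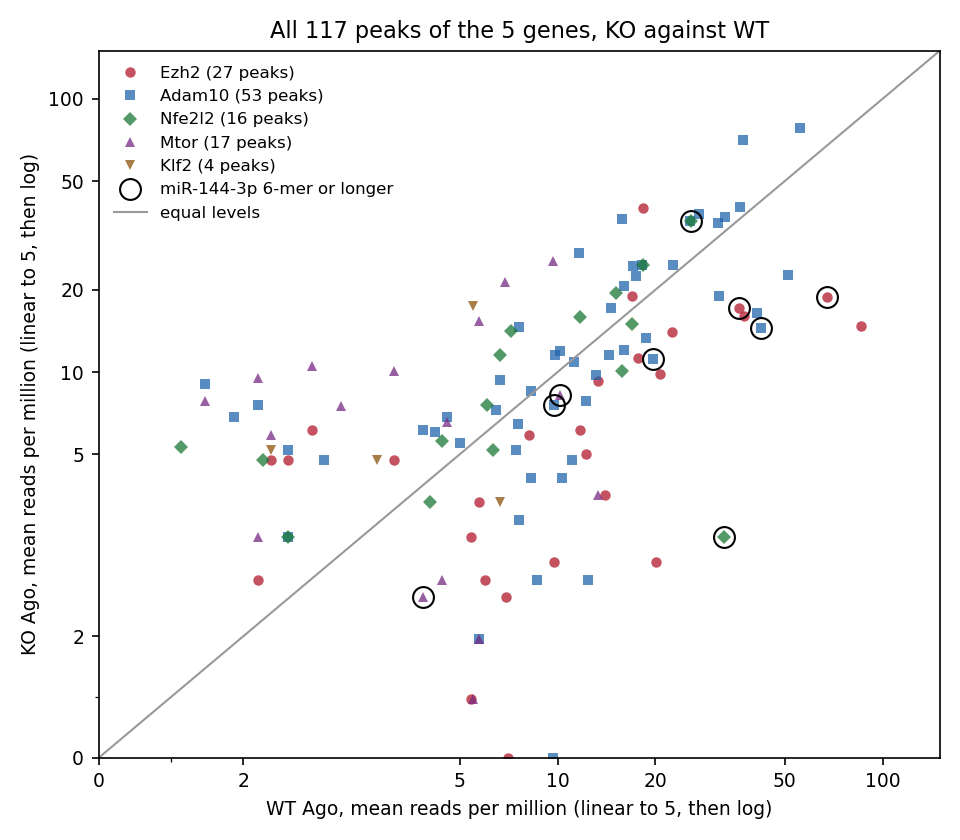
Mean RPM in KO Ago against WT Ago (n = 3 libraries each) for all 117 peaks of the 5 genes, coloured by gene, on axes that are linear up to 5 and logarithmic above. Circled points hold a miR-144-3p 6-mer or longer, and the line marks equal levels. Circled peaks of Ezh2 and the Nfe2l2 8-mer (32.6 in WT, 3.63 in KO) lie below the line, the Nfe2l2 6-mer (25.7, 35.7) lies above it, and most uncircled peaks scatter around it.

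Among peaks with 20 or more Ago reads, 46 belonged to the 5 genes. In 10 of these all WT levels lay above all KO levels, in 3 all KO levels lay above all WT levels, and 33 overlapped. Over all 20406 peaks of that depth the shares were 15.5% and 11.2%. Ezh2 had 5 of its 10 such peaks with WT above KO, Adam10 3 of 27, Nfe2l2 2 of 7 and Mtor none, while both such Mtor peaks had KO above WT.

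The second comparison asked whether the Ago antibody held these RNAs above IgG. None of the genes passed in either genotype. In WT, with 2594 genes tested, 12.6% were lower and 2.43% higher in Ago than in IgG, and in KO, with 1979 tested, 10.4% and 2.12%. The edgeR test called 0 of the 4 tested genes in each genotype, DESeq2 and limma-voom likewise 0, and only Adam10 in WT had an unadjusted p under 0.05 (0.017). Scaled by library size alone, 33.8% of the calls in WT and 41.2% in KO were on the Ago side, against 16.2% and 16.9% with TMM scaling, and the median log2 value of all genes moved from 0.19 to 0.38 in WT and from 0.21 to 0.50 in KO.

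Adam10 had the highest Ago over IgG value in WT, a log2 difference of 0.86 ± 0.35 (SE, n = 3 each; edgeR adjusted p = 0.091), from 831 RPM in Ago and 282 ± 103 RPM in IgG. It passed with library size alone (1.05, edgeR adjusted p = 0.03), with no filter (1.56, 0.0039), without WT Ago library 10 (0.98, 0.041) and without WT IgG library 2 (1.25, 0.04). In KO its difference was 0.29 ± 0.33 (edgeR adjusted p = 0.63). Ezh2 had 0.10 ± 0.36 in WT (edgeR adjusted p = 0.9) and 0.25 ± 0.49 in KO (0.79). Nfe2l2 had 0.26 ± 0.55 and 0.91 ± 0.64 (edgeR adjusted p = 0.82 and 0.4), and Mtor -0.68 ± 0.63 and 1.14 ± 0.78 (0.55 and 0.39). The standard errors of 0.33 to 0.78 come from 0 to 17 IgG reads per gene and library. Whether Ago over IgG differs between genotypes was not tested.

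The authors' own filter left few of these peaks. Their deposited table of differential peaks holds 5 of the 117: the Ezh2 miR-451a mismatch peak, the Adam10 peak at the gene end, the Adam10 peak with the mismatch code and both Mtor coding peaks. Among all 6651 peaks listed there 35.7% are lower and 1.29% higher in KO at a false discovery rate under 0.05. Checked on the full table, that filter keeps a peak if its density over background exceeds 5, its IgG ratio stays below 0.2 and its lowest height is 3 or more. Of the 117 peaks, 101 missed on density, 84 on height and 12 on the IgG ratio, and 26 on density alone. The Nfe2l2 8-mer peak was among those 26, with a density of 4.93, just under the threshold.

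Genes that work with each of the 5 were read from lists: of 70 genes listed 42 were tested, and 3 passed, against the 5.37% lower and 0.655% higher of all genes tested. A gene that did not pass is not shown to be unchanged. Across all genes tested the median log2 change of KO over WT was 0.03. Of 11 Polycomb complex genes besides Ezh2, 8 were tested, 1 fell and 1 rose, with a median of -0.20. Eed, the subunit that reads the Polycomb histone mark and activates Ezh2, held 50, 99 and 35 WT Ago reads and 16, 21 and 6 KO Ago reads, a log2 change of -1.66 ± 0.27 (edgeR adjusted p = 0.0021). Jarid2, an accessory subunit, had 37, 93 and 20 WT reads and 54, 113 and 34 KO reads, a log2 change of 0.87 ± 0.24 (edgeR adjusted p = 0.048). That call was lost in 8 alternatives, among them DESeq2 and all but 1 of the fits that left out a library.

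Of 15 regulators and targets of Nfe2l2, 11 were tested and 1 fell, none rose, and the median was 0.11. This was Mafg, the small Maf protein that pairs with Nfe2l2 on DNA, with 40, 94 and 37 WT reads and 12, 18 and 10 KO reads (-1.64 ± 0.27, edgeR adjusted p = 0.0022). Of 8 tested peaks in these genes 3 fell, all in 3′UTRs, against the 17.6% lower of all peaks tested. These 3 passed the filter through their WT reads, so the count is no rate for the list. That of Mafg, with a miR-451a mismatch code, had a log2 change of -3.61 ± 0.55 (edgeR adjusted p = 2e-04). That of Bach1, a repressor that competes with Nfe2l2 for the same DNA sites, holds a miR-451a 7-mer-A1 and had -2.53 ± 0.49 (edgeR adjusted p = 0.0012). That of Gclm, a subunit of the enzyme that starts glutathione synthesis and an Nfe2l2 target, held no locus code and had -2.86 ± 0.42 (edgeR adjusted p = 1.8e-04).

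Of 13 Adam10 partners and substrates 6 were tested, and none passed, with 1 at an unadjusted p under 0.05 (edgeR) and a median of -0.02. A coding peak of Tspan33, a tetraspanin that escorts Adam10 to the cell surface, fell by 2.6 on the log2 scale (SE 0.56, edgeR adjusted p = 0.0027), 1 of 2 tested peaks of the list. It too passed the filter through its WT reads, and the count is no rate beside the 17.6% of all peaks. Of 17 genes of the mTOR pathway 10 were tested, none passed and none had an unadjusted p under 0.05 (edgeR), with a median of 0.05. Of 14 other Krüppel-like factors 7 were tested and none passed, with 1 at an unadjusted p under 0.05 (edgeR) and a median of 0.15. DESeq2 and limma-voom also called 0 gene sums in these 3 lists.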

How the data were processed

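The authors' deposited table gives raw read counts per peak and library, and reads overlap a peak by at least 16 bases per the deposited column description. STAR, cutadapt, bedtools and limma were used with build mm10, per the submitters' processing notes, which give no versions. The deposited peak height is a coverage signal, the IgG ratio divides IgG by Ago height, and the seed codes and the density over background are scores, all by the authors. The authors' deposited log2 changes, p-values and false discovery rates were copied and not recomputed.

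Counts were tested with edgeR 4.0.16 in R 4.3.3 (quasi-likelihood, TMM scaling, filterByExpr with a minimum count of 10 and minimum total of 15), on all peaks or all gene sums, with Benjamini-Hochberg adjustment over all of them and a threshold of 0.05. Each fit used the 6 libraries compared. Gene sums add all peaks of a gene name, and 15 names turned into dates (332 peaks) were left out. Of the 117 peaks 72 have a neighbour within 50 bases, so a read can count in both. Other per-library columns (36) were not used. Ratios divide summed reads by summed library totals and carry exact conditional 95% intervals. Alternatives were DESeq2 1.42.0, limma-voom (limma 3.58.1), library size alone, no filter, other peak sets per gene and each library left out. All peaks of the 5 genes are counted. Named in full are peaks that passed the filter, those with a miR-144-3p or miR-451a match of a 6-mer or longer and the 2 with most Ago reads per gene. Called genes of each pathway list are named, at most 4 a list. Other Ezh2 and Adam10 peaks named were chosen after their values were seen. The genes and lists were chosen with earlier results of these data known.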

Additional observations from a re-analysis of the deposited data

How the results depend on the processing

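The 2 called Ezh2 peaks, and the Ezh2, Eed and Mafg sums under other tools, scalings and filters, kept their side of the threshold. So did most fits of single named peaks and genes. Over all fits compared 13 calls were lost and 4 gained. No direction of a called value reversed. Over all peaks, 2704 were lower with no filter (304 to 986 leaving out a library), and 7 were higher with DESeq2 and 69 with library size alone (3 to 54 leaving out a library). The lower peaks of the 5 genes numbered 2 to 5. Over all gene sums, 117 were lower and 6 higher with DESeq2, 435 and 13 with no filter, and 115 to 322 and 5 to 89 leaving out a library. Of the 5 genes 0 to 1 was lower, with Ezh2 at -1.16 to -0.92. For Ago over IgG in WT, 53 genes were lower and 3 higher with coding and UTR peaks alone. Higher genes numbered 31 with DESeq2, 161 with library size alone, 497 with no filter and 100 with limma-voom. Leaving out a library gave 64 to 367 lower and 3 to 152 higher. Adam10 was the 1 gene of the 5 gained with library size alone, with no filter and in the range of 0 to 1 when a library was left out. In KO, 57 were lower and 6 higher with coding and UTR peaks alone, 121 higher with library size alone, 284 with no filter and 94 with limma-voom, with 77 to 270 lower and 7 to 153 higher leaving out a library. With totals scaled by TMM over the tested peaks the Adam10 read ratio was 0.886, while the fit of its gene sum gave a log2 change of -0.02. The causes were not tested. Library size alone moved the median log2 change of all peaks from 0.09 to 0.25. No paired analysis was possible because the labels give no number or other mark that libraries of the groups compared share.

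Depth limits most of these genes: 111 of 117 peaks and Klf2 were not tested, and IgG libraries held at most 17 reads on any of the 5 genes.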
